A study of Mus musculus with 2 samples.

Results

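The lysosomal gene set described here holds 38 genes that encode cathepsins and their inhibitor cystatin C, acid hydrolases with their cofactors, lysosomal membrane proteins and the transcription factor TFEB. The members were chosen by name for their function, with earlier results of these data known. They were matched by gene symbol among the 35275 Ensembl genes of the deposited count table. All 38 were found, and 37 were measured, meaning that they had at least 20 read counts over both libraries. Ctsc, with 8 control and 11 mutant counts, was not.

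RNA came from mesenchymal stem/progenitor cells (MSPC), the stromal progenitors of bone, cartilage and fat in mouse bone marrow. The control library was from Ptpn11+/+ mice and the mutant library from Ptpn11E76K/+ mice, which carry 1 allele with an activating change (E76K) in the phosphatase SHP2. All mice were C57BL/6 and Nestin-Cre+, so the controls carried the Cre too. This Cre is driven by the promoter of nestin, which is also active outside marrow stroma, and no source used here gives the animals' age or number. The sort kept cells with CD140 and Sca-1 and without CD45, Ter-119 or CD31. The table holds 1 library per genotype, although the design text speaks of 2 replicates. No spread between animals can therefore be estimated, no test was run, and every difference below is one between 2 libraries. Levels are in CPM (counts scaled to library size) corrected with TMM factors. Ratios carry a 95% exact interval that covers counting error only, and a gene was called higher or lower when that whole interval lay beyond 2-fold.

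The libraries held 22328659 (control) and 18010963 (mutant) counts. In this bulk RNA, fewer cells of a type and less RNA per cell cannot be told apart. The sort markers were present, with Pdgfra at 2073 and 1792 counts, Pdgfrb at 6075 and 3721 and Ly6a, the Sca-1 gene, at 2177 and 612. Ly6a was itself called lower, at 2.67-fold (2.44 to 2.93). Nes, the nestin gene whose promoter drives the Cre, had 5192 and 10785 counts and was called higher, with a ratio of 2.76 (2.67 to 2.86). The 8 measured macrophage markers all had ratios above 1. Over all 15 listed, the summed level was 14.9 CPM (control) and 57.7 CPM (mutant). Of the 8 measured, 5 were called higher and 0 lower, beside 6.98% and 8.29% of all measured genes. Cd14 (121 and 237 counts) was among those called. Csf1r (149 and 229), Cd68 (40 and 79) and Cybb (11 and 19) were not called. Mrc1 (5 and 4), Aif1 (1 and 0) and Spi1 (1 and 4) were not measured. C1qa, C1qb, C1qc, Adgre1 and Ctss had 0 counts in the control, and Fcgr1 had 0 in both, so C1qa and Ctss were measured only through the mutant library, as were Lyz2 (11 and 276 counts) and Mpeg1 (5 and 62). Of 8 pan-blood genes 5 were measured and 4 were called higher, beside the same 6.98%, with sums of 0.432 and 12.3 CPM. All 5 passed the minimum only through the mutant library: Laptm5 had 0 and 31 counts, Itgb2 0 and 49, Tyrobp 0 and 20, Lcp1 2 and 76 and Coro1a 6 and 20. Endothelial and erythroid sums stayed at or below 1.15 CPM in both libraries. The 8 mitochondrially encoded genes, read as a sign of RNA quality, had 0 calls. The chromosomes differed too. Of 431 measured genes on chromosome X, 45.9% were called lower and the median log2 ratio was -1.15, while chromosome 15 had a median of 0.56. The medians of the other 18 autosomes lay between -0.11 and 0.17. Chromosome Y had only 2 measured genes, with a median of 1.19 and 0 calls. The part of the blood markers in the results below was not tested.

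Lysosomes are acidic organelles in which hydrolases break down proteins, glycosaminoglycans, glycolipids and glycogen that arrive by endocytosis and autophagy. In marrow stroma they turn over the matrix that the cells make and take back up, and cathepsin K is the main collagen-degrading protease of bone. Many lysosomal genes are known to carry the palindromic CLEAR element in their promoter, to which TFEB and its relatives bind. The kinases mTORC1 and ERK2 phosphorylate TFEB and hold it in the cytosol. Inherited loss of most members causes a lysosomal storage disease in humans.

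The summed level of the lysosomal set was lower in the mutant library. Its 38 genes took 1.02% of all counts in the control (227922 counts) and 0.676% in the mutant (121669 counts), and their summed level was 9854 CPM against 6997 CPM, a 1.41-fold difference. Without the 3 members on chromosome X, the sums were 8529 and 6666 CPM, a 1.28-fold difference. The median log2 ratio of mutant over control was -0.54 over the 37 measured members, beside 0.01 over all 13142 measured genes. A ratio below 1 was found for 29 members and above 1 for 8, beside 6555 and 6587 of all 13142 measured genes. The whole interval lay below 1 for 28 members and above 1 for 7, beside 4919 and 5201 of all measured genes. Ctsf, Ids, Lamp2, Idua, Arsb and Glb1 were called lower, which is 6 of 37 or 16.2%, beside 8.29% of all measured genes. Of the members 0 were called higher, beside 6.98% of all genes. With a threshold of 1.5-fold, 14 members (37.8%) were called lower, against 15.6% of all genes, and only Ctsk was called higher (2.7%, against 15.7%). With totals that leave out the 100 most abundant genes, 10 members were called lower at 2-fold. That scaling moved the median of all genes to -0.12 and their split from 917 higher and 1090 lower to 727 and 1314. The members' median was then -0.66.

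**Figure D1:**
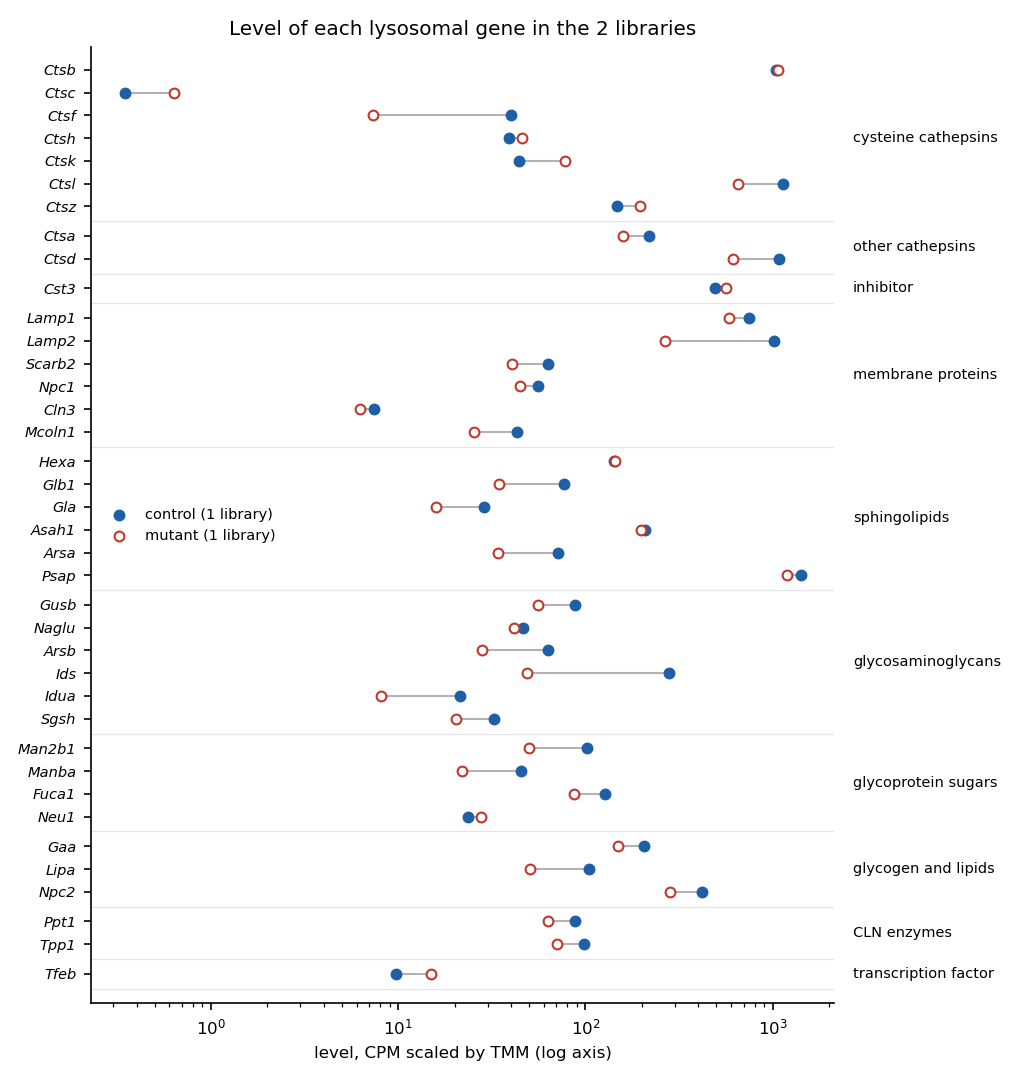
Level of each lysosomal gene in CPM on a log axis, with 1 point per library (filled, control; open, mutant) and genes grouped by role. Levels run from under 1 CPM for Ctsc to over 1000 CPM for Psap, and the open point lies to the left for 29 of the 37 measured genes.

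Promoters of the set were searched for the hexamer CACGTG and for the longer CLEAR-like TCACGTGA. Both read the same on either strand, and each TCACGTGA contains a CACGTG. RefSeq promoter windows (build GRCm38.p6, from 250 bases before to 50 after a listed start) matched 34 members. CACGTG lay in a window of 13 of these (38.2%), beside 8.09% of 27025 genes with a window. TCACGTGA lay in 5 (14.7%), beside 1.12% of all genes. None of these 5 was called at 2-fold, but each had a ratio below 1. At 1.5-fold, Ctsd, Gla and Mcoln1 were called lower. Among matched members, the hexamer lay in 2 of 6 called lower at 2-fold and in 11 of 28 not called. The 2 called ones, Ctsf and Glb1, held it without the longer form. The other called members (Ids, Lamp2, Idua and Arsb) had neither in their windows. The stretches of 60 bases below show each of the 5 longer matches and the hexamers of the 2 called genes, with the motif in capitals, in the direction of the gene.
Ctsd: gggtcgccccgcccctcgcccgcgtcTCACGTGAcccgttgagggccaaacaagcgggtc
Ctsa: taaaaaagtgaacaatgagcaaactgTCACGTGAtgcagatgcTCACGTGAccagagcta
Mcoln1: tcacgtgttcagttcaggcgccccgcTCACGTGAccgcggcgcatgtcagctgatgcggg
Cln3: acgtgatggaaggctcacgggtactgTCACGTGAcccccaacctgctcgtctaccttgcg
Gla: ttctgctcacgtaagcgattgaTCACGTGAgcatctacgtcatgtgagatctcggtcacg
Ctsf: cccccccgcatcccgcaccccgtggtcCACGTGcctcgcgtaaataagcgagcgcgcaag
Glb1: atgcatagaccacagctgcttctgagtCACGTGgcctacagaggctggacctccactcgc

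In GRCm38.p6 these stretches lie at chr7:142387893-142387952 on the minus strand (Ctsd), chr2:164833734-164833793 on the plus strand (Ctsa) and chr8:3500447-3500506 on the plus strand (Mcoln1). The next ones lie at chr7:126583325-126583384 on the minus strand (Cln3) and chrX:134601196-134601255 on the minus strand (Gla). The hexamers lie at chr19:4855059-4855118 (Ctsf) and chr9:114401003-114401062 (Glb1), both on the plus strand. The motif of Ctsd ended 91 bases before the listed start, that of Mcoln1 38 bases and that of Ctsf 73 bases before it. For Ctsa and Cln3, each with 2 listed starts, the match belongs to the start farther along the gene. The Gla window holds a second match outside the stretch shown. A match says only that these letters are there, and the deposited data hold no measure of binding.

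Among the cysteine cathepsins, Ctsf was the exception in size. Ctsf, which encodes the papain-like protease cathepsin F, had 922 control counts (39.9 CPM) and 128 mutant counts (7.36 CPM). It was 5.42-fold lower (4.50 to 6.57) and was called under each of the other settings tried. Ctsl, whose endopeptidase cathepsin L acts broadly on proteins, had 26203 counts in the control against 11343, 1.74-fold lower after scaling (1.70 to 1.78) without a call. The remaining measured cysteine cathepsins lay above 1 with TMM scaling. Ctsk, the gene of the collagenase cathepsin K, had 1017 and 1346 counts (44.0 and 77.4 CPM), a ratio of 1.76 (1.62 to 1.91). That was the highest ratio of the 37 measured members. Cathepsin K is also the main protease of osteoclasts. Of 10 osteoclast markers, Ctsk included, 3 were measured and 0 called. The marker levels summed to 88.7 CPM (control) and 127.2 CPM (mutant), of which Ctsk itself made 44.0 and 77.4 CPM. Itgb3, which encodes an integrin subunit, stood at 147 and 182 counts with a ratio of 1.65 (1.32 to 2.06). Nfatc1, which encodes a transcription factor, stood at 882 and 668 counts. Calcr, Dcstamp and Ocstamp had 0 counts in both libraries, Acp5 had 2 and 1, Atp6v0d2 2 and 7, Mmp9 2 and 5 and Tnfrsf11a 0 and 2. The part of such cells in the Ctsk level was not tested. Ctsz, the gene of a carboxypeptidase, had 3397 and 3394 counts, a ratio of 1.33 (1.27 to 1.39) after scaling. Ctsh, the gene of an aminopeptidase, had 902 and 797 counts, a ratio of 1.18 (1.07 to 1.29). Ctsb, whose protease cuts within proteins and also removes dipeptides from their ends, stood at 1043 and 1072 CPM. Its ratio was 1.03 (1.01 to 1.05), which fell below 1 with total counts. The cysteine cathepsin genes thus ran from a ratio of 0.185 to 1.76 in the same 2 libraries.

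The cathepsins of other classes were lower. Ctsd, which encodes the aspartic protease cathepsin D, had 24996 control counts (1081 CPM) and 10737 mutant counts (617.5 CPM), 1.75-fold lower (1.71 to 1.79). Ctsa, which encodes a carboxypeptidase that also protects beta-galactosidase and sialidase in their complex, went from 5040 control counts to 2746, a level 1.38-fold lower (1.32 to 1.45). Neither was called. Cst3, the gene of the secreted cysteine protease inhibitor cystatin C, had 11377 and 9791 counts, a ratio of 1.14 (1.11 to 1.18). Its log2 ratio of 0.20 became -0.11 once trends over transcript length and GC content were removed. All cathepsin genes together took 0.388% of the control counts and 0.273% of the mutant counts.

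The 6 lysosomal membrane genes of the set all had ratios below 1. The lowest was that of Lamp2, which is on chromosome X. Lamp2 encodes a glycoprotein that lines the lysosomal membrane and serves in autophagosome fusion and in chaperone-mediated autophagy. It had 23492 control counts (1016 CPM) and 4639 mutant counts (266.8 CPM), 3.81-fold lower (3.69 to 3.93). Its close relative Lamp1 had 17189 and 10187 counts (743.2 and 585.9 CPM), 1.27-fold lower (1.24 to 1.30). Mcoln1 encodes the calcium channel TRPML1 through which lysosomal calcium release activates TFEB. It had 993 control and 444 mutant counts, 1.68-fold lower (1.502 to 1.88). Scarb2, the gene of the receptor that carries glucocerebrosidase to lysosomes, had 1461 counts in the control against 705, 1.56-fold lower after scaling (1.42 to 1.71). Npc1, the gene of the cholesterol exporter of the membrane, went from 1296 control counts to 779, a level 1.25-fold lower (1.14 to 1.37). Cln3 had only 171 and 109 counts, and its interval for being lower (0.922 to 1.51) includes 1. Of these 6 genes, Lamp2 alone was called.

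Of the 6 genes of glycosaminoglycan breakdown in the set, 3 were called lower (50%), beside 8.29% of all measured genes. Ids encodes iduronate 2-sulfatase, which removes a sulfate from heparan and dermatan sulfate. It had 6491 control counts (280.6 CPM) and 842 mutant counts (48.4 CPM), 5.80-fold lower (5.39 to 6.23). Idua encodes the iduronidase that takes off the sugar which this sulfatase leaves. It had 497 and 141 counts (21.5 and 8.11 CPM), 2.65-fold lower (2.19 to 3.22), and shares a few exon bases with Dgkq on the opposite strand (582 and 328 counts). Arsb, the gene of the sulfatase of dermatan and chondroitin sulfate, had 1465 and 487 counts (63.3 and 28.0 CPM), 2.26-fold lower (2.04 to 2.51). The other members of the set in this group were lower without a call. Sgsh, the heparan N-sulfatase gene, had 748 control and 355 mutant counts, 1.58-fold lower (1.39 to 1.80). Gusb, the beta-glucuronidase gene, had 2042 counts in the control against 972, 1.58-fold lower after scaling (1.46 to 1.71). Naglu, which encodes an N-acetylglucosaminidase of heparan sulfate, went from 1075 control counts to 720, a level 1.12-fold lower (1.02 to 1.24). The 6 genes had a median log2 ratio of -0.92, and their summed level was 532.6 CPM against 202.3 CPM in the mutant library. Ids, which is on chromosome X, made 280.6 and 48.4 CPM of these sums. Set against the medians of their chromosomes, Ids and Idua kept their calls and Arsb did not.

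**Figure D2:**
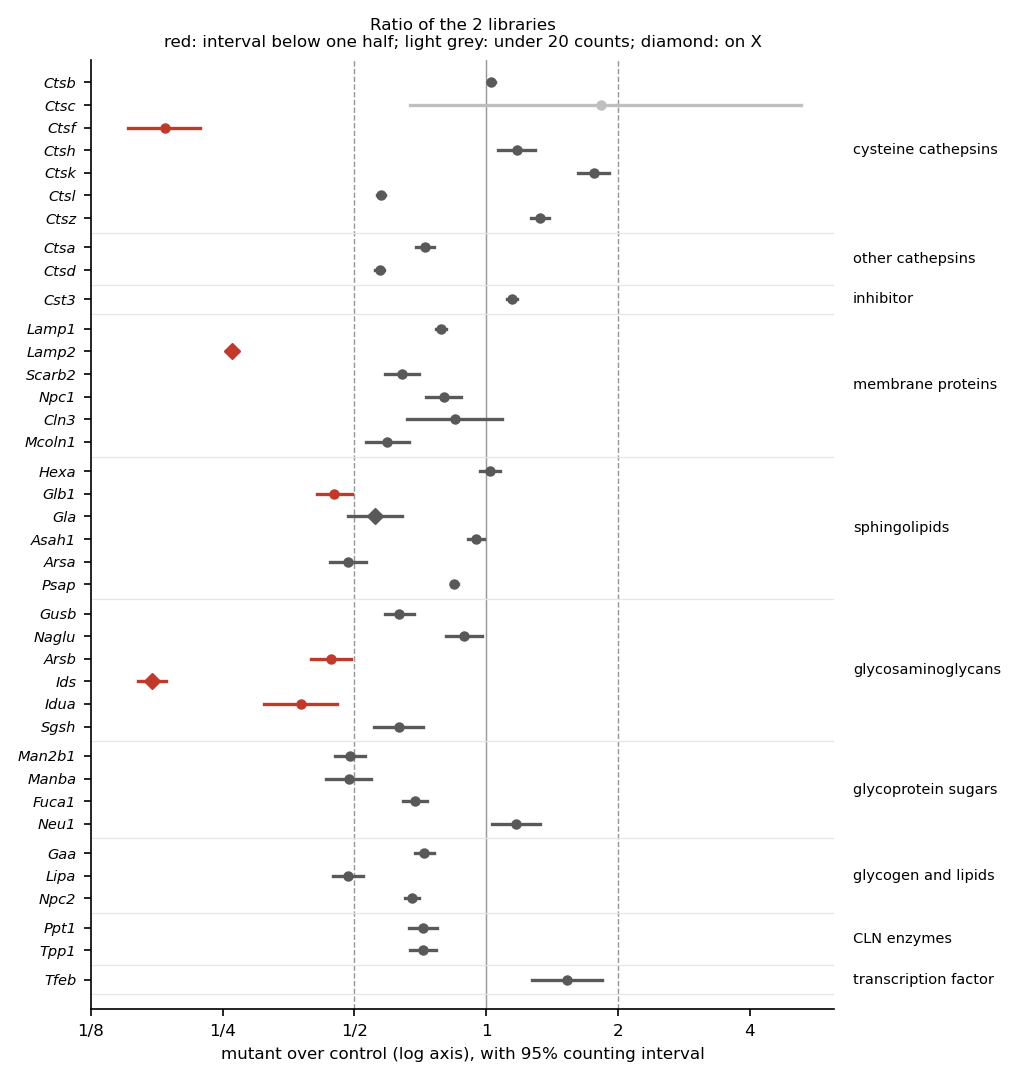
Ratio of mutant over control for each lysosomal gene on a log axis, with its 95% counting interval; red marks genes called lower, light grey the unmeasured Ctsc, diamonds the 3 genes on chromosome X and dashed lines 2-fold. Ids, Ctsf and Lamp2 lie far to the left, most others lie between the lower 2-fold line and 1, and Ctsk has the highest ratio of the measured genes.

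In sphingolipid breakdown the genes spread from no difference to a call. Glb1, the gene of the beta-galactosidase that cuts the ganglioside GM1 and keratan sulfate, had 1773 control counts (76.7 CPM) and 600 mutant counts (34.5 CPM). It was 2.22-fold lower (2.02 to 2.44), just past the threshold, and shares exon bases with Tmppe, which had 437 and 411 counts. Arsa, whose arylsulfatase A cuts sulfatide, had 1641 control and 596 mutant counts, 2.07-fold lower (1.88 to 2.28), just short of it. Gla, the alpha-galactosidase gene, had 662 counts in the control against 278, 1.79-fold lower after scaling (1.55 to 2.07). The genes of 3 further proteins of these steps stayed close to 1. Psap encodes the precursor of the saposins, small activators of glycolipid hydrolases, and had the highest count of the set with 32634 and 20743, 1.18-fold lower (1.16 to 1.20). Asah1, the acid ceramidase gene, went from 4811 control counts to 3427, a level 1.06-fold lower (1.01 to 1.10), but its direction turned without the length and GC trends (log2 ratio 0.02). Hexa, which encodes the alpha subunit of hexosaminidase, had 3272 and 2513 counts, a ratio of 1.02 with an interval from 0.969 to 1.08.

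The genes of glycoprotein sugar removal lay near the threshold in 2 cases. Manba, the beta-mannosidase gene, had 1048 control and 382 mutant counts, 2.06-fold lower (1.83 to 2.32). Man2b1, the alpha-mannosidase gene, had 2363 counts in the control against 870, 2.04-fold lower after scaling (1.89 to 2.21). Their intervals reach inside 2-fold, so neither was called. Fuca1, the alpha-fucosidase gene, went from 2928 control counts to 1517, a level 1.45-fold lower (1.36 to 1.54). Neu1, whose sialidase removes terminal sialic acids, went the other way with 547 and 481 counts, a ratio of 1.17 (1.03 to 1.32) after scaling.

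Genes for lipid and glycogen breakdown were also lower without a call. Lipa, the gene of acid lipase, which frees cholesterol from lipoprotein esters, had 2406 control and 875 mutant counts, 2.07-fold lower (1.91 to 2.24). Npc2, whose soluble protein hands that cholesterol to NPC1, had 9654 counts in the control against 4913, 1.48-fold lower after scaling (1.43 to 1.53). Gaa, the gene of the alpha-glucosidase of glycogen, went from 4747 control counts to 2579, a level 1.38-fold lower (1.32 to 1.45). Ppt1 is the gene of a thioesterase that removes fatty acids from proteins, and Tpp1 that of a tripeptidyl peptidase. Both are mutated in human neuronal ceroid lipofuscinosis. Ppt1 had 2038 control and 1097 mutant counts, 1.40-fold lower (1.30 to 1.504). Tpp1 had 2278 counts in the control against 1229, 1.39-fold lower after scaling (1.30 to 1.49), so the pair differed from the control by nearly the same ratio.

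Tfeb itself was not lower. It had 225 control counts (9.73 CPM) and 259 mutant counts (14.9 CPM), a ratio of 1.53 (1.28 to 1.84) without a call. A transcript count does not show where the TFEB protein was in the cells. Of its relatives, Tfe3, which is on X, had 2237 and 1122 counts and a log2 ratio of -0.58, or 0.57 against the median of chromosome X. Mitf had 290 and 257 counts and a log2 ratio of 0.24, and Tfec had 0 and 2 counts. Neither of the 2 measured relatives was called.

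Per kilobase of the longest transcript, the order of levels across the 37 measured members was much alike in both libraries (Spearman's rho 0.937, Pearson's r 0.941 on the log2 scale, as a description across genes that share libraries and lengths). Cst3 led both, with 572.0 CPM per kb in the control and 654.8 in the mutant, followed by Psap (531.0 and 449.0) and Ctsd (508.1 and 290.3). Ids and Ctsf changed place most. Lamp2 went from place 5 to place 9, Ids from place 14 to place 25 and Ctsf from place 24 to place 35. Ctsk moved the other way, from place 18 to place 12. With 1 library each, neighbouring places cannot be separated beyond counting error.

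Ids, Lamp2 and Gla are on chromosome X, where the median gene was lower in the mutant library, and Xist itself stood at 945.9 and 520.5 CPM. Against the median of chromosome X, an alternative chosen after the data were seen, Ids was 2.61-fold lower (2.43 to 2.81) and was called. Lamp2 was then 1.72-fold lower (1.66 to 1.77) and was not called, and Gla had a ratio of 1.24 (1.07 to 1.43) in place of 0.559. Lamp2 and Ids were lower than the median of their chromosome and Gla was not. With every gene set against its own chromosome, Arsa, on chromosome 15, was 3.06-fold lower (2.78 to 3.37) and Lipa 2.22-fold lower (2.05 to 2.40), and both were called. Arsb (1.91 as the lower bound) and Glb1 (1.89) then lost their calls. That gives 5 called lower (13.5%), beside 7.23% of all genes on that basis. Over the 34 measured members not on X, the median log2 ratio was -0.48 and 4 were called lower (11.8%), beside 7.02% of all measured genes not on X.

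**Figure D3:**
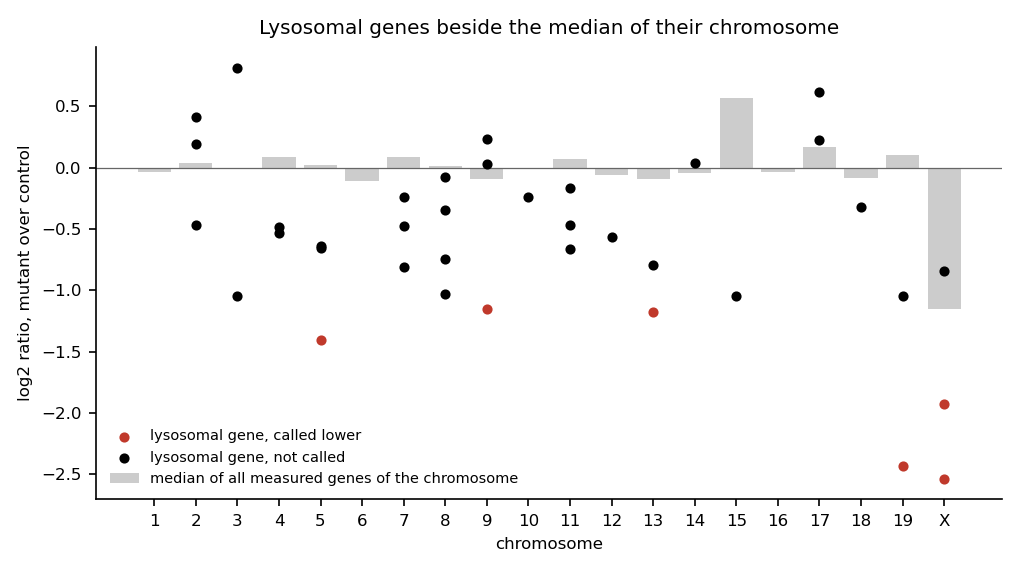
Log2 ratio of mutant over control for each measured lysosomal gene (points; red, called lower) by chromosome, with the median of all measured genes of that chromosome as a bar. The bars of X (-1.15) and 15 (0.56) stand apart from the other autosomes; Ids and Lamp2 lie below the bar of X and Gla above it.

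Other genes of the lysosome were counted from 8 lists without the members above. Together, 15 of their 144 measured genes were called lower (10.4%) and 2 higher, beside 8.29% and 6.98% of all measured genes, and a list's share near that background is not a result about the list. Among 37 measured hydrolases and activators outside the set, 5 were called lower and 2 higher, and the median log2 ratio was -0.43. Epdr1, which encodes an ependymin-related lysosomal protein, went from 8966 control counts to 1583, a level 4.26-fold lower (4.04 to 4.49). Arsk, the gene of a sulfatase of glucuronate residues, had 586 control and 151 mutant counts, 2.92-fold lower (2.44 to 3.51). Ifi30, the gene of a thiol reductase of antigen processing, had 330 and 1034 counts and was 4.17-fold higher (3.68 to 4.73). Ctss, the cathepsin S gene of macrophages and also in their marker list, had 0 and 34 counts, so it was measured only through the mutant library. The share called lower in this list, 13.5%, stood between that of the set and that of all genes.

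Among 28 measured further membrane proteins the median was -0.45, with a ratio below 1 for 19 and above 1 for 9. Of them, 3 were called lower (10.7%) and 0 higher, beside 8.29% and 6.98% of all measured genes. They were the peptide transporter gene Abcb9 (172 and 26 counts, 4.97-fold, 3.28 to 7.83), the potassium and proton channel gene Tmem175 (491 and 111 counts, 3.33-fold, 2.70 to 4.12) and Mcoln3. Mcoln3, a channel gene related to Mcoln1, had 32 counts and 1 count, a 24.1-fold lower level with a wide interval (4.02 to 979.5). The genes that acidify the lysosome differed less. Of 18 measured V-ATPase genes 2 were called lower (11.1%) and 0 higher, with a median of -0.01. Those 2, the accessory subunit genes Atp6ap1 (10071 and 3632 counts, 2.08-fold lower) and Atp6ap2 (4118 and 1278 counts, 2.42-fold lower), are on chromosome X. Against the median of that chromosome neither was called, with a ratio of 1.06 for Atp6ap1 and of 0.915 for Atp6ap2.

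Of 14 genes that sort enzymes to lysosomes, 2 were called lower (14.3%) and 0 higher, beside 8.29% and 6.98% of all measured genes. Their median was 0.03. Igf2r, which encodes the large mannose 6-phosphate receptor, had 5284 counts in the control against 1750, 2.27-fold lower after scaling (2.15 to 2.40). The small receptor gene M6pr had 3540 and 3263 counts and was not called. Lrp1, the gene of an endocytic receptor, went from 67770 control counts to 24080, a level 2.12-fold lower (2.08 to 2.15). Among 18 genes of mTORC1 and its lysosomal platform, Rragb, which is on X, and Fnip1, the gene of a folliculin partner, were called lower and 0 higher, with a median of -0.06. Rragb was 3.08-fold lower (2.25 to 4.29), and against the median of chromosome X it was 1.39-fold lower (1.02 to 1.93) and was not called. Fnip1 was 2.24-fold lower (2.06 to 2.44). Of 25 autophagy genes the kinase gene Ulk2 was called lower (2.40-fold, 2.20 to 2.61) and 0 higher, with a median of -0.09. Of 10 other cystatins 2 were measured and 0 called, and 7 had 0 counts in both libraries.

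**Figure D4:**
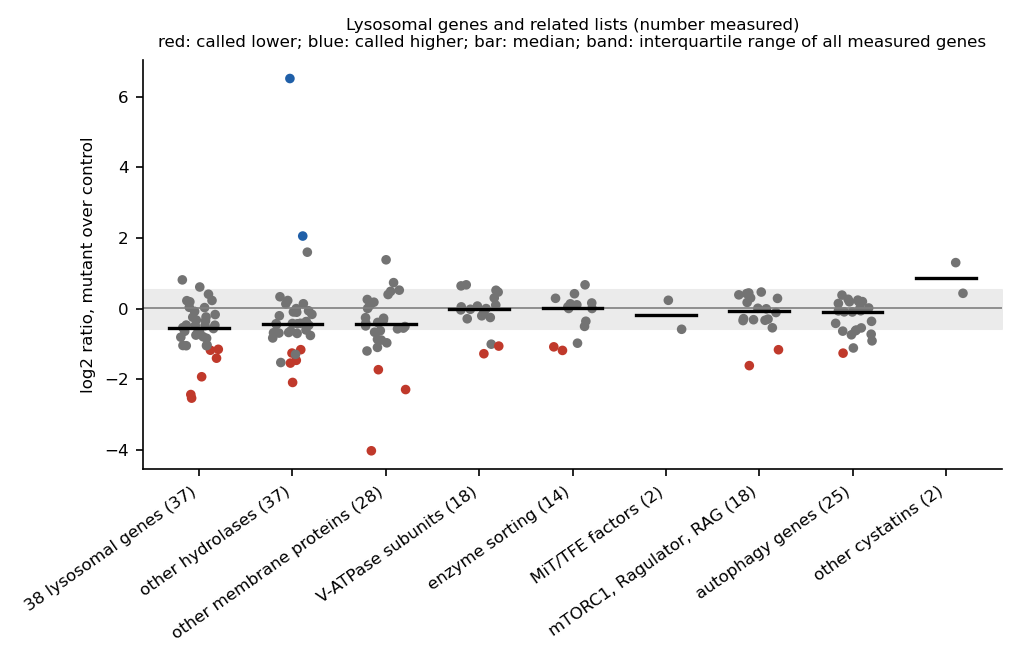
Log2 ratio of mutant over control for measured genes (points; red, called lower; blue, called higher) of the lysosomal set and the related lists, with list medians as black bars and the interquartile range of all measured genes as a band. The set (-0.54) and both further lysosomal lists (-0.43 and -0.45) have medians below those of the V-ATPase, sorting and autophagy lists; the top point, Ctss, is at 0 counts in the control and its height depends on the prior count.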

How the data were processed

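The authors deposited raw read counts per Ensembl gene, whole numbers that were not normalized, with 1 column per genotype. The submitters' processing notes list CASAVA, TopHat, edgeR and mm9; no source used here states the counter, annotation release or strand setting, so reads of overlapping genes may be shared. In GENCODE M21, Idua, Arsb and Glb1 share exon bases with other gene models, and Ctsf, Ids and Lamp2 do not. Symbols were found for 34490 identifiers, and lengths and GC content come from the longest GENCODE M21 transcript. Totals were scaled by TMM in edgeR 4.0.16 (factors 1.036 and 0.965). Ratios carry exact Clopper-Pearson intervals (SciPy 1.17.1), and log2 ratios use a prior count of 0.5. Alternatives included size factors from DESeq2 1.42.0, upper-quartile factors, plain totals, other minimums, thresholds and intervals, and gene trends (mgcv 1.9.3). Every member is named, with up to 4 called genes per other list. Members and lists were chosen with earlier results of these data known.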

Additional observations from a re-analysis of the deposited data

How the results depend on the processing

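No paired analysis was possible because each genotype has 1 library. The members' median log2 ratio stayed negative in all alternatives (-0.66 without the 100 most abundant genes in the totals, the lowest, to -0.48 without the X-linked members, the highest), and their count called lower was 10 without those abundant genes. At 1.5-fold, 14 members were called lower and 1 higher, 28 and 6 genes of the other lists, and 2046 and 2063 of all genes. At 3-fold, 3 members and 3 genes of the other lists were called lower, and 464 of all genes lower and 378 higher. With a minimum of 100 counts, 1 gene of the other lists was called higher. Arsb and Glb1 were not called with a 99% interval. The cause of these changes was not tested. Besides the cases named above, Ctsb and Hexa changed sign with total counts (log2 ratios -0.06 and -0.07), without the abundant genes (-0.09 and -0.10) and, for Hexa, without the length and GC trends (-0.16). Intervals cover counting error only.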
